A study of Mus musculus with 20 samples.

Results

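Hepatic transporter genes were followed here across a mouse liver study of the Polycomb protein EED and regeneration: Slco1a1, Slco1a4, Slco1b2, Slco2b1, Slc22a7, Slc13a2, Slc13a3, Slc13a5 and Abcc3. These 9 members, of 46603 gene identifiers in the count tables, were listed by name. Slc13a2 was picked from among the genes on its genotype-dependent response to PHx, in the values of all 4 groups, so it is described without a test in every comparison. The list was named for organic cation carriers too, but none of the 9 is one; the organic cation carrier Slc22a3 is given with the related families. All 9 passed the filter on low counts, among 14661 genes tested; for Slc13a2 and Slc13a5 the filter was met because of the groups in which they are high, and nothing is read from the share of members that passed.

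Poly(A) RNA was sequenced from livers of male mice aged 2 months in 4 groups of 5 samples. Wild-type (WT) mice were C57BL/6J bought from a vendor. Knockout (KO) mice, EedHepKO, carried Alb:Cre, in which the albumin promoter drives the Cre recombinase in hepatocytes, with a floxed Eed allele that loses exons 3 to 6 on recombination, and came from the laboratory's own colony, so genotype cannot be told apart from colony. Baseline RNA came from the lobes removed at partial hepatectomy (PHx), the surgical removal of most of the liver, and the other sample from the lobes that were left to regrow, so the response to PHx cannot be told apart from a difference between lobes. After PHx, WT mouse 1 was sampled at 30 h, WT mice 2 and 3 at 40 h and WT mice 4 and 5 at 48 h; KO mouse 12 was sampled at 30 h, KO mice 10 and 11 at 40 h and KO mice 7 and 8 at 48 h. The title of 1 WT baseline sample carries no mouse number; it is called mouse 1 here as a name only and is not paired.

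EED is a core subunit of the Polycomb repressive complex that places the repressive trimethyl mark on lysine 27 of histone H3. Hepatocytes take organic anions such as bile acids, conjugated steroids, bilirubin and many drugs from portal blood through the sodium-independent carriers of the SLCO (OATP) family and through SLC22A7, and return conjugates to the blood through the ABC pump ABCC3. SLC13 proteins are sodium-coupled carriers of Krebs cycle intermediates: SLC13A2 and SLC13A3 carry dicarboxylates such as succinate and are best known from kidney and intestine, and SLC13A5 is the citrate carrier of the liver.

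The tables held 21634890 to 30461351 counts per sample, and levels below are CPM, a library-size-scaled count corrected for composition by TMM. Log2 fold changes come from one edgeR quasi-likelihood fit of all 20 samples unless another fit is named. In both stages Eed transcripts were lower in every KO liver than in every WT liver. They were at 16.6, 17.05, 18.4, 15.3 and 16.7 CPM in the WT livers at baseline against 6.505, 7.52, 3.83, 5.57 and 4.79 CPM in KO. After PHx they were at 23.2, 16.8, 15.2, 14.6 and 22.05 CPM in WT against 4.97, 2.75, 4.69, 4.86 and 5.82 CPM in KO. Reads of the deleted exons were not separated. The summed level of 7 hepatocyte markers, albumin among them, was 118500 to 138200 CPM at baseline and 69510 to 116500 CPM after PHx in WT. In KO it was 73870 to 99170 CPM and 37470 to 90370 CPM. It moved in the same direction as most of the uptake carriers below, and its part in their changes was not tested; in bulk RNA, fewer cells of a type and less RNA per cell cannot be told apart. Summed markers of cholangiocytes (23.3 to 58.3 CPM in WT and 55.5 to 359 CPM in KO at baseline) and of macrophages (95.8 to 166 and 223 to 285 CPM) and stellate cells (119 to 215 and 311 to 411 CPM) lay above or near the top of the WT range in KO at baseline. In KO against WT at baseline 2 of 7 hepatocyte markers were called lower, and 1 of 5 tested cholangiocyte, 2 of 6 macrophage and 3 of 6 stellate cell markers higher (4.89% of all genes were called lower and 11.1% higher). After PHx 2 of 7 hepatocyte markers were lower in KO, and 4 of 5 cholangiocyte, 2 of 6 stellate cell and 1 of 6 macrophage markers were higher (8.2% and 16% of all genes). In the WT response 3 of 7 hepatocyte and 2 of 6 endothelial markers fell, and of 6 macrophage markers 2 rose and 1 fell (8.68% of all genes fell and 11.4% rose). In the KO response 3 of 7 hepatocyte and 1 of 6 stellate cell markers fell, and 3 of 5 cholangiocyte markers rose. Of 6 endothelial markers 1 rose and 2 fell there, and of 6 macrophage markers 1 rose and 3 fell (17.5% of all genes rose and 12.1% fell). Their part in the transporter values was not tested.

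Per kilobase of exon, the WT liver at baseline was dominated by 2 uptake carriers. Slco1b2 stood at 245 ± 22.4 (SD, n = 5) and Slco1a1 at 150 ± 14.5 CPM per kilobase, which is 48.3% and 29.6% of the sum over the 9 genes. Below them came Abcc3 (51.1 ± 9.22), Slco2b1 (28.9 ± 1.94), Slc22a7 (16.2 ± 3.41), Slco1a4 (11.3 ± 2.84), Slc13a2 (2.76 ± 1.21), Slc13a3 (2.05 ± 0.396) and Slc13a5 (0.0718 ± 0.0388 CPM per kilobase). Ranges of neighbours in this order overlapped for Slc22a7 with Slco1a4 and for Slc13a2 with Slc13a3 only.

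The summed level of the 9 genes was 507.5 CPM per kilobase at baseline and 188.4 after PHx in WT. In KO it was 190.2 and 79.0 CPM per kilobase. The order changed with it: in KO after PHx Abcc3 led with 35.7% of the sum, Slco1b2 held 16.9%, and Slco1a1 had moved from the second place to the eighth with 3.14%, or 1.13% without KO mouse 12 (the 30 h KO liver). Slc13a5 moved from last place, at 0.0142% of the sum in WT at baseline, to the fifth, at 7.75% in KO after PHx, or to the seventh, at 5.61%, without KO mouse 12. In KO after PHx every gene's range overlapped that of the next in the order.

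**Figure D1:**
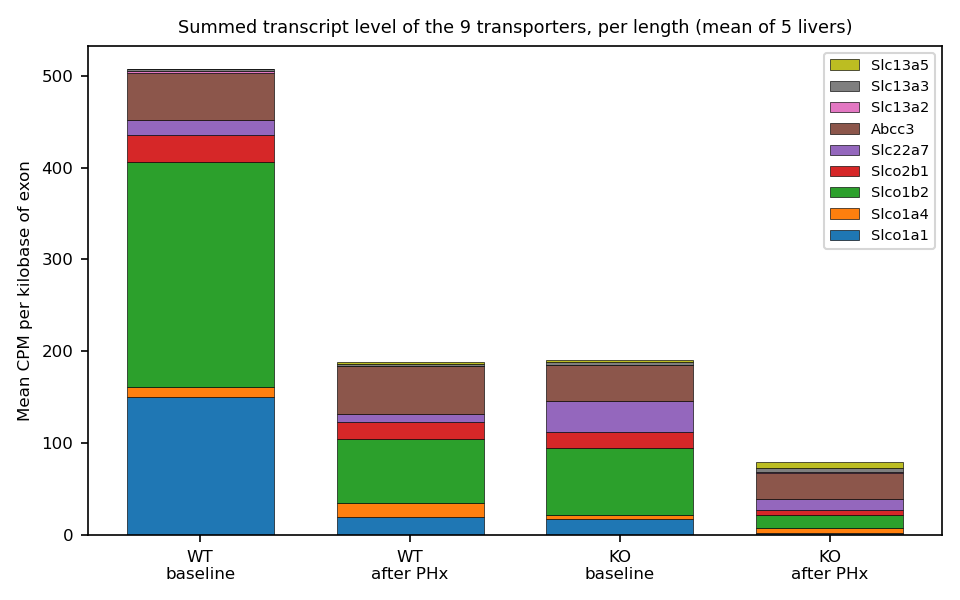
Stacked bars of the mean transcript level per length (CPM per kilobase of exon, linear axis, 5 livers per group) of the 9 transporters. The bar falls from 507.5 in WT at baseline to 188.4 and 190.2 in WT after PHx and KO at baseline and to 79.0 in KO after PHx, mainly through Slco1b2 (green) and Slco1a1 (blue).

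Slc13a2 being set aside, 8 transporters were tested in 5 comparisons, with a call at a Benjamini-Hochberg adjusted p under 0.05. At baseline, KO differed from WT in 3 of 8, with Slco1a1 and Slco1a4 lower (2 of 8; 4.89% of all tested genes were called lower) and Slc13a5 higher (1 of 8; 11.1% of all genes). After PHx, KO was lower than WT in Slco1a1, Slco1a4 and Slco2b1 (3 of 8, against 8.2% of all genes) and higher in none of the 8, against 16% of all genes. The response to PHx in WT was a fall of Slco1a1 (1 of 8, 8.68% of all genes) and a rise of Slc13a5 (1 of 8, 11.4% of all genes). In KO, PHx was followed by lower Slco1a1, Slco1b2 and Slco2b1 (3 of 8, 12.1% of all genes) and higher Slc13a5 (1 of 8, 17.5% of all genes). The higher calls are all of Slc13a5, so nothing is read from their count against the share of all genes. With the mouse as a block, since both samples of a pair come from 1 animal, 4 of 8 were called in WT (13.5% of all genes), with Slco1b2 and Slc22a7 lower in addition. In KO 3 of 8 were then called (22.5% of all genes), with Slc22a7 added and Slco1b2 and Slc13a5 lost. The all-gene shares depend on the scaling: with library size alone 24% of all genes were called higher and 0.771% lower in KO at baseline, 26.6% and 2.02% in KO after PHx, 25.9% and 3.97% in the WT response and 27.7% and 6.55% in the KO response. Single libraries decided some of these counts: without KO baseline mouse 7 the baseline count was 1, without WT mouse 2 after PHx the count between genotypes after PHx was 5, and without WT mouse 4 after PHx the WT response had 1. The KO response had 1 without mouse 7 after PHx, and 2 without mouse 8 after PHx or without baseline mouse 8, 10, 11 or 12.

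The spread within groups was uneven, and this bears on these calls. At baseline the groups of 5 livers did not overlap for 6 of 8 transporters (27.9% of all genes), while after PHx KO and WT overlapped for all 8 (10% of all genes did not overlap). The WT response left 4 of 8 without overlap (17.8% of all genes), and the KO response 1 of 8 (13.9% of all genes). When only the 10 baseline livers were fitted, without the wider spread of the livers after PHx, 7 of 8 transporters were called at baseline, against 39.3% of all genes in that fit. When only the 10 livers after PHx were fitted, 1 of 8 was called, Slco1a4, which is near the 10.3% of all genes. The difference between the PHx responses of the genotypes was called for 0 of 8 by edgeR, against 0.389% of all genes. At an unadjusted p under 0.05 there was 1 of 8, Slc13a5, near the 13.3% of all genes, and DESeq2 called 0 of 8, against 2.49% of all genes.

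**Figure D2:**
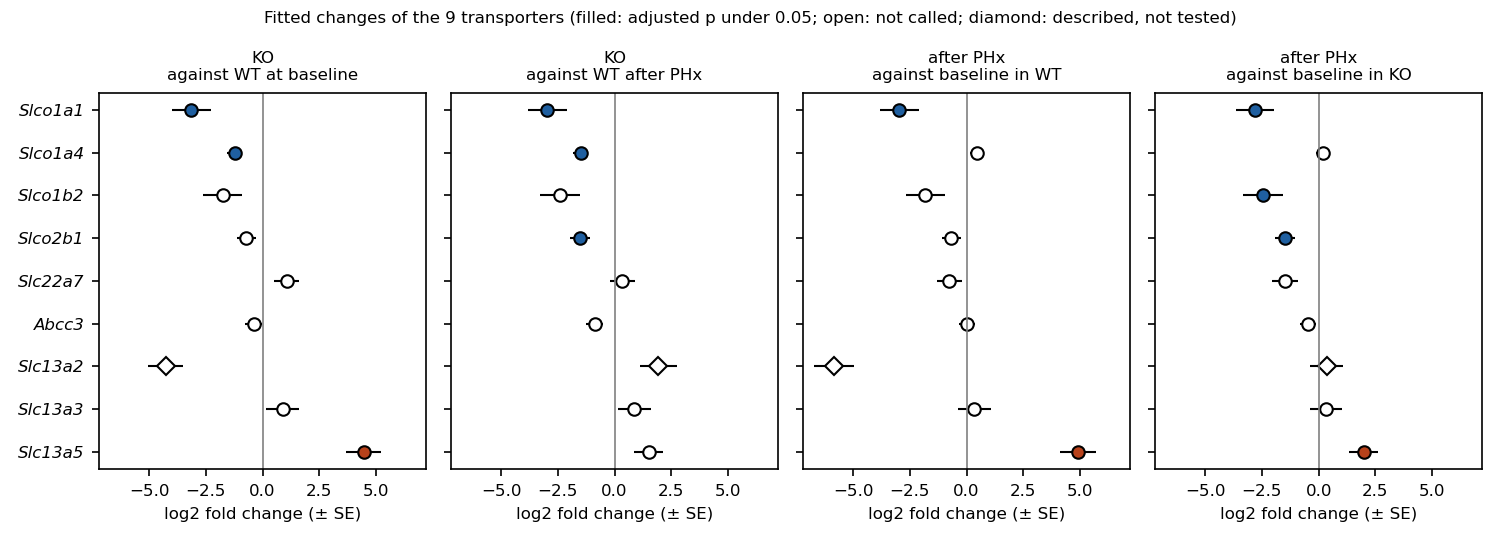
Fitted log2 fold changes (points) with standard errors (bars) of the 9 transporters in 4 comparisons, on linear axes. Filled points were called by edgeR (3, 3, 2 and 4 of 8 from left to right), open circles were not called, and the diamond is Slc13a2, which was described only.

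Slco1a1 encodes OATP1A1, an uptake carrier for bile acids and conjugated steroids that is known for its male-predominant expression in mouse liver. In WT mice 1 to 5 its level was 679, 794, 895, 799 and 796 CPM at baseline. It was 263, 23.4, 17.2, 19.8 and 185 CPM after PHx. In KO mice 7, 8, 10, 11 and 12 it was 38.8, 156, 84.3, 113 and 59.3 CPM at baseline and 4.11, 7.05, 2.17, 3.59 and 48.5 CPM after PHx. Every KO liver at baseline lay below every WT liver at baseline, and so did every WT liver after PHx; the liver sampled at 30 h was the highest after PHx in each genotype. KO was lower than WT by a log2 fold change of −3.13 (SE 0.858, edgeR adjusted p = 0.0166) at baseline, and by −2.96 (adjusted p = 0.0161) after PHx. Its fall after PHx was −2.97 in WT (SE 0.852, edgeR adjusted p = 0.0189) and −2.80 in KO (SE 0.849, adjusted p = 0.0199). All 4 of 4 paired WT mice and 5 of 5 KO mice were lower after PHx.

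Each of these Slco1a1 calls was lost on leaving out 1 library. It was lost at baseline without KO baseline mouse 7 (edgeR adjusted p = 0.0567), between the genotypes after PHx without the WT liver of mouse 1 (log2 fold change −2.23, adjusted p = 0.059). It was lost in the WT response without mouse 4 after PHx (−2.64, 0.0515), and in the KO response without mouse 7 (−2.52, 0.058) or mouse 8 (−2.59, 0.0575) after PHx. Without KO mouse 12 after PHx, the 30 h liver, the fall in KO was −4.41 and the KO difference after PHx −4.58 on the log2 scale, and with only the 10 livers after PHx fitted that difference was not called (edgeR adjusted p = 0.116).

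Slco1b2 encodes OATP1B2, the mouse counterpart of the human liver carriers for bilirubin, statins and many other drugs. WT livers held 1233, 1049.5, 1346, 1250.1 and 1159 CPM at baseline, and 930.1, 9.74, 276, 5.78 and 496 CPM after PHx in mice 1 to 5. KO livers held 349, 584, 322, 297 and 233 CPM at baseline and 21.5, 14.6, 94.7, 68.8 and 129.7 CPM after PHx in mice 7, 8, 10, 11 and 12. WT and KO did not overlap at baseline, and baseline and regrowing livers did not overlap in either genotype. The 5 WT livers after PHx covered a 161-fold range, with mice 2 (40 h) and 4 (48 h) below every KO liver and mouse 1 (30 h) near the WT baseline, whereas the WT baseline livers covered a 1.28-fold range.

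At this spread Slco1b2 was called lower in 1 comparison, the KO response: the change was −2.44 (SE 0.885, edgeR adjusted p = 0.0438) in KO and −1.81 (SE 0.865, adjusted p = 0.145) in WT on the log2 scale, and the difference between them, −0.63 (SE 1.19), was not called (adjusted p = 0.869). The differences of KO from WT were −1.76 (edgeR adjusted p = 0.175) at baseline and −2.38 (adjusted p = 0.055) after PHx. All 4 paired WT mice (by −7.53 to −1.22) and all 5 KO mice (by −5.23 to −0.84, log2 of CPM + 1) were lower after PHx. With the mouse as a block, the WT change was −4.49 and called (edgeR adjusted p = 0.0458) and the KO change −2.75 and not called (adjusted p = 0.063). Leaving out WT mouse 1 after PHx also gave a called WT fall (−2.62, 0.0492). The KO call was lost on leaving out any 1 of 8 of the 10 KO libraries (all but mice 10 and 12 after PHx, adjusted p = 0.0563 to 0.108), and with no filter on low counts (−2.42, adjusted p = 0.0509). The KO difference after PHx was called without WT mouse 2 (0.0175) or 4 (0.016) or KO mouse 12 (0.0448) after PHx, and by DESeq2 (0.027). With only the baseline livers fitted, the baseline difference was called (edgeR adjusted p = 4.69e-05).

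The WT livers with the least Slco1b2 after PHx were also those with the least Mki67, a marker of dividing cells that was looked at after these values were seen. Mki67 stood at 82.3, 0.217, 14.2, 0.284 and 328 CPM in WT mice 1 to 5 after PHx, so mice 2 and 4 were below the WT baseline livers, which held 0.505 to 1.76 CPM. In KO mice 7, 8, 10, 11 and 12 it was 3.42, 8.17, 119, 25.3 and 3.65 CPM after PHx and 34.6, 26.5, 3.38, 4.28 and 2.49 CPM at baseline. The 2 KO livers with the least Slco1b2 after PHx, those of mice 7 and 8, held less Mki67 than mice 10 and 11, but KO mouse 12, with the most Slco1b2, held no more Mki67 than mouse 8. The part of cell division in the Slco1b2 levels was not tested.

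Slco1a1, Slco1a4 and Slco1b2 are close paralogs that lie within one stretch of chromosome 6 (build mm10, GENCODE M21): Slco1b2 at chr6:141629518-141686646 on the plus strand, Slco1a4 at chr6:141805440-141856199 and Slco1a1 at chr6:141907282-141946962 on the minus strand. Reads shared between such paralogs may have been split or dropped in the authors' counting, which the sources used here do not describe. The 250 bases before the RefSeq start (GRCm38.p6) of Slco1a1 and Slco1b2 are shown, because these 2 genes had the highest levels of the 9 in WT at baseline, lie in one locus and had similar patterns over the 20 samples. Capitals mark matches to motifs searched on both strands.
Slco1a1, chr6:141946963-141947212, minus strand: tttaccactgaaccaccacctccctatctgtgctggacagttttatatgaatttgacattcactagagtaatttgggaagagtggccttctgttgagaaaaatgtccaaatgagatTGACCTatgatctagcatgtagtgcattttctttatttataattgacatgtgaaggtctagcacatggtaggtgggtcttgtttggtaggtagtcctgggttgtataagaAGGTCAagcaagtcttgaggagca
Slco1b2, chr6:141629268-141629517, plus strand: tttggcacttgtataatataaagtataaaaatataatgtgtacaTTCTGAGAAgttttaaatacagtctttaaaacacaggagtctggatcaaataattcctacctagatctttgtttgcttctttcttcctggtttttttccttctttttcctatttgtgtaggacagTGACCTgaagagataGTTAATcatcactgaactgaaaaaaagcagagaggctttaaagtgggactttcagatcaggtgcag

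Both windows hold the nuclear receptor half-site AGGTCA or its reverse TGACCT, 134 and 24 bases before the start in Slco1a1 and 81 bases before it in Slco1b2; 14% of 32851 promoter windows of the same length hold it. Slco1b2 also holds TTCTGAGAA, a match to the STAT5 motif TTCNNNGAA, 206 bases before its start (7.02% of promoters) and the HNF1 half-site GTTAAT at 66 bases (6.43%). The Slco1a4 window between them on the chromosome holds no match to the 6 motifs searched, which also included TGACNNNGC (10.2% of promoters), CACGTG (6.02%) and GCGTG (28.2%). None of these 3 windows contains a CG dinucleotide. Among the other members, a window of Slco2b1 holds the STAT5 match TTCCGGGAA 133 bases before its start. The Slc13a3 window holds TGACGGTGC at 201 bases and CACGTG at 154 bases.

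Slco1a4 encodes OATP1A4, a carrier with broad substrates, cardiac glycosides among them. In WT it was 42.5, 89.3, 76.8, 83.1 and 69.7 CPM at baseline and 74.8, 86.9, 148, 126 and 61.6 CPM after PHx. The KO livers held 15.5, 27.3, 32.9, 31.3 and 48.1 CPM at baseline and 27.5, 22.1, 25.8, 38.1 and 63.7 CPM after PHx. Only the WT liver of mouse 1 at baseline fell within the KO baseline range, and only KO mouse 12 after PHx came within the range of the WT livers after PHx. KO was lower than WT at baseline by a log2 fold change of −1.22 (SE 0.324, edgeR adjusted p = 0.0137) and after PHx by −1.49 (SE 0.325, adjusted p = 0.00246). Unlike its neighbours, this gene was not called after PHx in either genotype, with log2 fold changes of 0.46 (edgeR adjusted p = 0.327) in WT and 0.19 (adjusted p = 0.67) in KO, and 2 of 4 WT mice and 3 of 5 KO mice were higher. The baseline call was lost without KO baseline mouse 7 (edgeR adjusted p = 0.0616) and with scaling by library size alone (0.0586), under which the WT response was called higher (0.80, 0.0489).

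Slco2b1 encodes OATP2B1, a carrier of sulphated steroids. WT livers held 161, 159, 184, 179 and 179 CPM at baseline and 134, 92.2, 128, 51.6 and 132 CPM after PHx. KO livers held 82.3, 79.7, 112, 117 and 129.6 CPM at baseline and 10.1, 11.2, 82.5, 54.8 and 27.7 CPM after PHx, the lowest 2 values being those of mice 7 and 8 at 48 h. Its changes were smaller than those of Slco1a1: KO was lower than WT after PHx (log2 fold change −1.53, SE 0.43, edgeR adjusted p = 0.0138), and KO livers fell after PHx (−1.49, SE 0.43, adjusted p = 0.0155) in 5 of 5 mice. The groups were apart at baseline and in the WT response, but the differences, −0.72 (edgeR adjusted p = 0.258) and −0.68 (adjusted p = 0.27), were not called. Neither call held in every setting. Without the 2 livers sampled at 30 h the KO difference after PHx had an edgeR adjusted p of 0.0587, and with only the 10 livers after PHx 0.117. With only the 10 KO livers the KO response had 0.0657, while the baseline difference was called with only the baseline livers (0.00101). Antisense Gm15635, which overlaps an exon of Slco2b1, reached at most 2.39 CPM.

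Slc22a7 encodes OAT2, a carrier of organic anions and nucleobases that exchanges glutamate. It was 32.4, 38.04, 25.7, 44.03 and 29.9 CPM in WT at baseline and 48.5, 5.09, 9.59, 4.36 and 32.7 CPM in WT after PHx. In KO it was 73.1, 55.9, 107, 49.98 and 69.4 CPM at baseline and 17.9, 7.53, 50.8, 17.2 and 33.8 CPM after PHx. At baseline it stood apart from the SLCO carriers: every KO liver was above every WT liver, at 2.09 times the WT mean, though the fit of all samples did not call it (log2 fold change 1.06, SE 0.552, edgeR adjusted p = 0.201). After PHx the WT values fell into a pair near baseline, mice 1 and 5, and 3 livers at 4.36 to 9.59 CPM. The response was −0.76 (edgeR adjusted p = 0.351) in WT and −1.48 (SE 0.558, adjusted p = 0.0505) in KO, where 5 of 5 mice were lower.

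With the mouse as a block both Slc22a7 responses were called, at −1.90 (edgeR adjusted p = 0.0379) in WT and −1.70 (adjusted p = 0.0222) in KO. The KO response was also called without KO mouse 10 after PHx (−1.90, 0.0153), without the 30 h livers (0.038), with only the KO livers fitted (0.0387), with a filter of at least 1 CPM in at least 5 samples (0.0493) and by DESeq2 (0.0267). The higher baseline level of KO was called with only the baseline livers (edgeR adjusted p = 0.000968) and with scaling by library size alone (0.0458), and the genotypes after PHx differed by 0.34 (adjusted p = 0.687), which was −0.07 without KO mouse 10 after PHx.

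Abcc3 encodes MRP3, the basolateral pump that exports bile acid and drug conjugates to the blood. It was 225, 243, 336, 328 and 322 CPM in WT at baseline and 219.9, 515, 258, 353 and 122 CPM in WT after PHx. In KO mice it was 151, 145, 242, 273 and 299 CPM at baseline and 53.9, 238, 112, 226 and 172 CPM after PHx. The groups overlapped in all 4 comparisons, and none was called. The largest difference was between the genotypes after PHx, −0.87 (SE 0.369, edgeR adjusted p = 0.0922), and it was called without WT mouse 5 after PHx (−1.08, 0.0365). The baseline difference of −0.39 (adjusted p = 0.508) turned to 0.07 with scaling by library size alone, which moves the median over all genes from −0.03 to 0.45, and the WT response was 0.01 (adjusted p = 0.989).

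**Figure D3:**
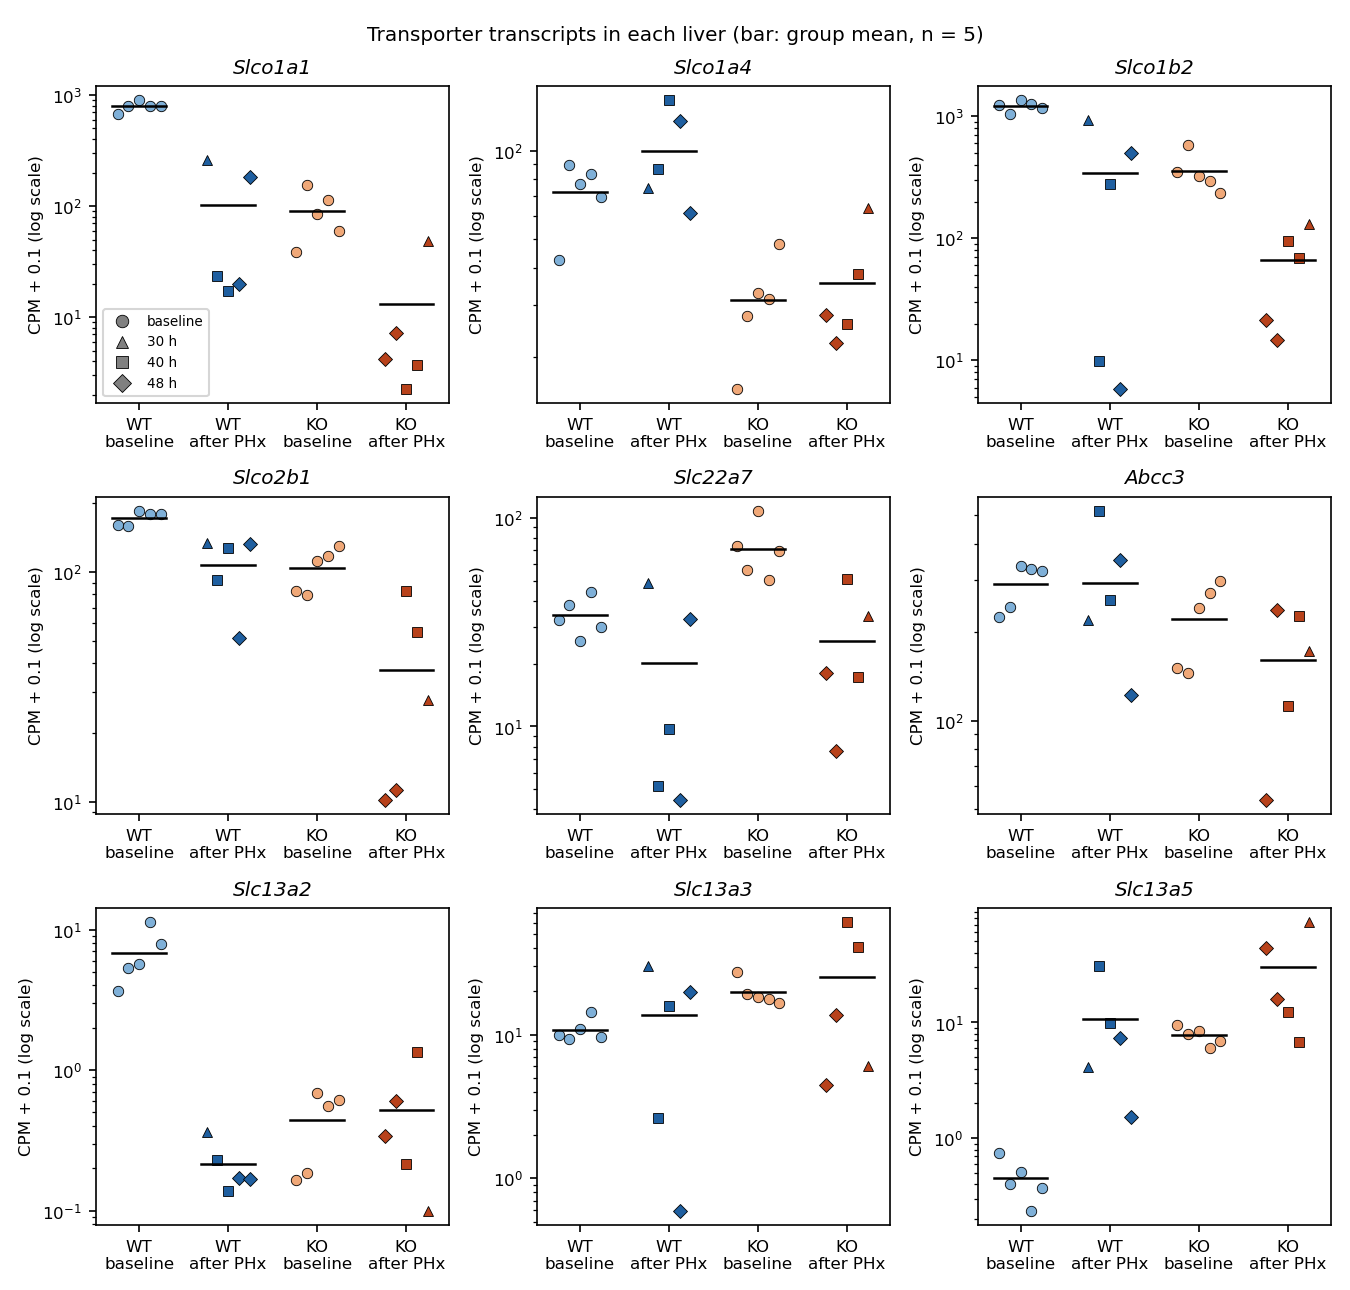
Each liver's level of the 9 transporters (CPM + 0.1, log axes that differ between panels), by group, with bars at group means (n = 5) and marker shapes for the time after PHx. Slco1b2 in WT after PHx runs from 5.78 to 930.1 CPM, and Slc13a2 is between 3.58 and 11.1 CPM in WT at baseline and at most 1.25 CPM in the 15 other livers.

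The 3 SLC13 carriers each took another course. Slc13a2, the sodium-dicarboxylate cotransporter NaDC1, was 3.58, 5.25, 5.61, 11.1 and 7.75 CPM in WT at baseline and 0.262, 0.1305, 0.0381, 0.0709 and 0.0687 CPM in WT after PHx, that is 681 counts summed over the baseline livers and 14 over the livers after PHx. In KO it was 0.0664, 0.0845, 0.586, 0.457 and 0.516 CPM at baseline (43 counts) and 0.2397, 0.505, 0.114, 1.25 and 0 CPM after PHx (79 counts), and the liver with no count, mouse 12, had a limit of 0.142 CPM at 3 counts. All 5 WT livers at baseline lay above all other livers, and the 15 others were at 1.25 CPM or less. The WT mean went from 6.67 ± 2.91 CPM at baseline to 0.114 ± 0.0891 CPM after PHx (SD, n = 5). The KO means were 0.342 ± 0.248 and 0.422 ± 0.4999 CPM.

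As a description of the pattern for which it was picked, Slc13a2 had a fitted log2 fold change of −4.27 (SE 0.786) in KO at baseline and of −5.85 (SE 0.872) in the WT response, 0.35 (SE 0.734) in the KO response and 6.20 (SE 1.12) for the difference of responses. In KO it was higher after PHx in 3 mice and lower in 2. The KO values rest on few counts, and mouse 11 after PHx held 45 of the 79: without it the KO response was −0.61 and the difference between genotypes after PHx 0.96 rather than 1.92. The antisense gene Slc13a2os, which overlaps an exon, had no count in any library. Summed markers of kidney tubule, a tissue rich in Slc13a2, were at most 0.652 CPM in any liver; of the enterocyte markers, sucrase (Sis), lactase (Lct) and Alpi had mean levels of 0 or close to it, at most 0.163 CPM, in every group. The other 3 were detected and moved with genotype: Vil1 was called higher in KO at baseline (log2 fold change 4.88, edgeR adjusted p = 0.00586) and after PHx (7.38, 0.000235), and Slc5a1 likewise (2.42, 0.00673, and 2.30, 0.00571). Fabp2 was called lower in KO at baseline (−0.99, edgeR adjusted p = 0.0117) and higher in the KO response (1.30, 0.00208). The 6 markers summed to 64.3 to 71.8 CPM at baseline and 67.6 to 146 CPM after PHx in WT, and to 33.4 to 46.9 CPM and 50.6 to 139 CPM in KO, and their part in the Slc13a2 values was not tested.

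Slc13a5, the sodium-citrate cotransporter NaCT that brings citrate into hepatocytes, went the other way in KO at baseline and in the WT response. WT livers held 0.6501, 0.2999, 0.412, 0.138 and 0.275 CPM at baseline and 4.01, 30.49, 9.74, 7.27 and 1.44 CPM after PHx. KO livers held 9.46, 7.86, 8.28, 5.899 and 6.76 CPM at baseline and 43.5, 15.9, 12.2, 6.64 and 72.95 CPM after PHx. Few reads were counted in WT at baseline, 3 to 10 counts per liver, and all 15 other livers were above all 5 of those. KO was higher at baseline by a log2 fold change of 4.45 (SE 0.786, edgeR adjusted p = 0.000627), 7.65 ± 1.38 against 0.355 ± 0.192 CPM. After PHx it rose by 4.92 in WT (SE 0.796, edgeR adjusted p = 0.000432), in 4 of 4 paired mice, and by 1.98 in KO (SE 0.648, adjusted p = 0.0281), in 5 of 5. The difference of the 2 responses, −2.94 in KO minus WT (SE 0.98), was not called (edgeR adjusted p = 0.198), nor was the genotype difference after PHx, 1.51 (adjusted p = 0.0906).

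Without any filter on low counts, Slc13a5 was called at baseline (4.52, edgeR adjusted p = 0.00027) and in the WT response (4.97, 0.000185). These 2 calls held in every alternative run, while the KO rise was lost with the mouse as a block (1.45, edgeR adjusted p = 0.0705), without the 30 h livers (1.35, 0.099), and without KO baseline mouse 8, 10, 11 or 12 or KO mouse 7 or 12 after PHx (0.0511 to 0.109). The genotype difference after PHx was called without WT mouse 2 after PHx (2.43, edgeR adjusted p = 0.00767), the highest WT liver, without KO mouse 10 after PHx (0.0492), and with scaling by library size alone (0.0259). An overlapping transcript on the other strand, 1700051A21Rik, reached at most 0.39 CPM.

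**Figure D4:**
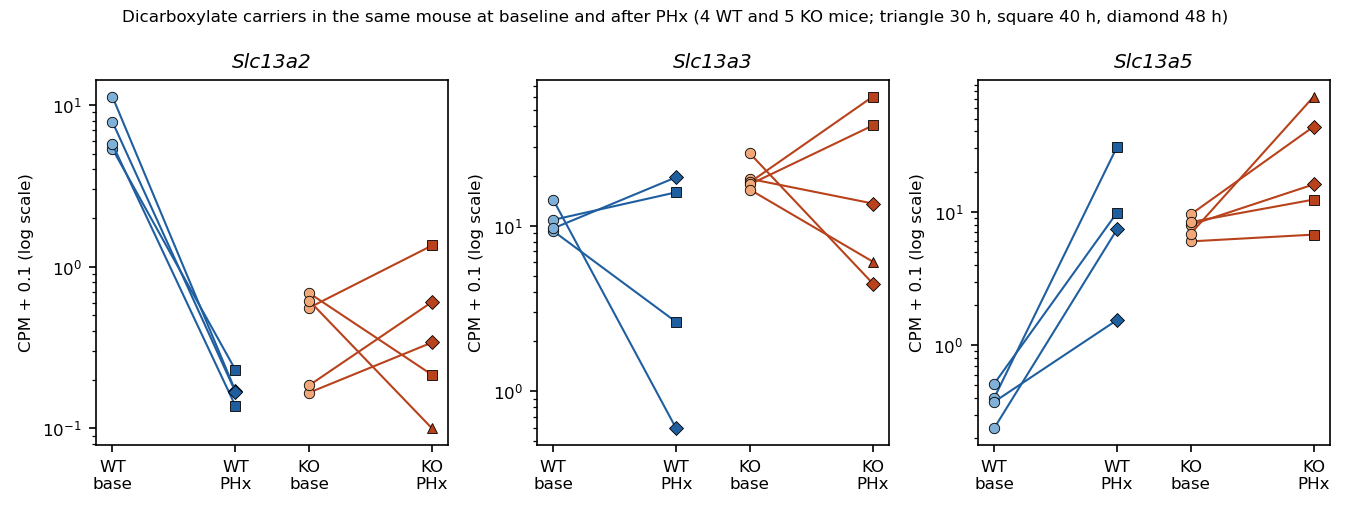
Slc13a2, Slc13a3 and Slc13a5 in the same mouse at baseline and after PHx (CPM + 0.1, log axes), for 4 WT and 5 KO mice with a number in both sample titles. Slc13a2 falls in 4 of 4 WT mice and is mixed in KO (3 up, 2 down), Slc13a3 is mixed in both genotypes, and Slc13a5 rises in all 9 mice.

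Slc13a5 and Slc13a2 differed in sign in KO against WT at baseline and in the WT response. They shared a sign in KO against WT after PHx and in the KO response. Both genes lie on the minus strand of chromosome 11 (mm10), Slc13a5 at chr11:72241989-72267222 and Slc13a2 at chr11:78397087-78422217. The 250 bases before their RefSeq starts (for Slc13a5 the more distal of 2 starts) hold no match to the 6 motifs. They are shown for a property counted after the levels were seen, the CG dinucleotides, here in capitals.
Slc13a2, chr11:78422235-78422484, minus strand: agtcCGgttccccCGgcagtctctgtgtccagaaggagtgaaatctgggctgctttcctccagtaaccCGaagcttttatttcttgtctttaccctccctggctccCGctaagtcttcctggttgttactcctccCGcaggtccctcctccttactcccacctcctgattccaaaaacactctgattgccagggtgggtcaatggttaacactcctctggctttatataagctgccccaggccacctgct
Slc13a5, chr11:72267162-72267411, minus strand: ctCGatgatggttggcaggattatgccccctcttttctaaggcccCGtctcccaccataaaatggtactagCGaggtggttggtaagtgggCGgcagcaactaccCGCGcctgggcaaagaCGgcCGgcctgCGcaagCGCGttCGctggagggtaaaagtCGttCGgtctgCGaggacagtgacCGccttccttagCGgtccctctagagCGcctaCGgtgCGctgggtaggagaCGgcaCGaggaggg
The Slc13a2 window holds 5 CG dinucleotides, the Slc13a5 window shown 22, and the window of its other start 13. The window of Slc13a3, which the main fit called in no comparison, holds 14. The part of CG content in the levels was not tested. Over 32851 promoters the median was 6, with 49.6% holding at most 5, 70.6% at most 13 and 86.7% at most 22.

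Slc13a3, the high-affinity dicarboxylate carrier NaDC3, was 9.82, 9.198, 10.8, 14.3 and 9.54 CPM in WT at baseline and 29.9, 2.52, 15.8, 0.496 and 19.5 CPM in WT after PHx. In KO it was 27.2, 19.1, 18.2, 17.7 and 16.4 CPM at baseline and 4.38, 13.5, 60.2, 40.3 and 5.96 CPM after PHx. All KO livers were above all WT livers at baseline, at 1.84 times the WT mean, and after PHx the values spread in both directions, with WT mice 2 and 4 and KO mice 7 and 12 lowest. The WT livers low in Slc13a3 after PHx were the same 2 that were lowest in Slco1b2 and Mki67. No comparison was called (baseline log2 fold change 0.88, SE 0.727, edgeR adjusted p = 0.444; WT response 0.35, 0.782; KO response 0.33, 0.747), but with only the baseline livers the KO level was called higher (edgeR adjusted p = 0.000976).

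Among all tested genes with a mean of at least 1 CPM, the closest in pattern to Slc13a2 over the 20 samples (Pearson's r of log2 of CPM + 1) were Gm12718 (0.94), Cela1 (0.907), Fermt2 (0.895), Slc17a8 (0.892) and Mapk15 (0.879). Of these Gm12718 had the most similar levels, at group means of 3.83 CPM at baseline and 0.165 CPM after PHx in WT, and of 0.326 and 0.0319 CPM in KO. Slco1a1 was closest to Sult2a8 (0.978), Ugt2b1 (0.965) and Ugt3a1 (0.955), and Slco1b2 to the SLC22 family gene Slc22a30 (0.98), Akr1c6 (0.98) and Akr1c14 (0.977). Slc13a5 was closest to Tgfbr2 (0.95), Col4a1 (0.939) and Spg21 (0.937). These values describe livers that share the 4 groups' differences. Among the members themselves Slco1a1 and Slco1b2 had an r of 0.81, and Slco1a1 and Slc13a5 −0.78.

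The related carriers moved in both directions. Of 11 other SLCO genes only 2 were measured above the filter: Slco3a1 was higher in KO at baseline (log2 fold change 1.15, edgeR adjusted p = 0.00254), and the prostaglandin carrier Slco2a1 fell in WT after PHx (−0.82, adjusted p = 0.0105) and was higher in KO than WT there (0.86, 0.00537). Of 25 SLC22 and SLC47 genes 14 were tested. Of these 3 were higher and 1 lower in KO at baseline (11.1% and 4.89% of all genes), and 2 and 2 after PHx (16% and 8.2%). With PHx 3 rose and 4 fell in the WT response (11.4% and 8.68% of all genes), 2 and 4 in the KO response (17.5% and 12.1%). The organic cation carrier Slc22a3 (OCT3) was called higher in the same 3 comparisons as Slc13a5, and in KO against WT after PHx too (1.32, edgeR adjusted p = 0.00319). It was 1.93 ± 0.566 CPM in WT and 12.1 ± 3.06 CPM in KO at baseline (log2 fold change 2.64, edgeR adjusted p = 1.36e-05), and 10.2 ± 3.31 CPM in WT and 25.4 ± 9.46 CPM in KO after PHx. Slc22a28 was lower in KO in both stages (−3.11 and −3.12) and Slc22a26 higher (4.38 and 3.34); these belong to a group of closely related rodent genes, so their counts are uncertain.

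The list of other ABC genes held 12, all tested. Not all encode pumps: Abcc9, which does not, was called higher in KO in both stages (0.92 and 0.93). In KO at baseline 6 of the 12 were higher and none lower, where 11.1% of all genes were called higher and 4.89% lower. Their median log2 fold change was 1.12 against −0.03 over all genes, and Abcc3 was not called. Abcc4 (MRP4), a basolateral pump like Abcc3, was 1.61 ± 0.239 CPM in WT and 5.55 ± 1.04 CPM in KO (1.78, edgeR adjusted p = 7.33e-05), Abcc1 was 1.85 higher (0.000462) and the drug pump Abcb1a 2.81 higher (0.00119). After PHx 5 were higher and 2 lower in KO (16% and 8.2% of all genes), the lower ones being the canalicular pumps Abcc2 (MRP2; −1.18, edgeR adjusted p = 0.0238) and Abcb4 (−1.62, 0.000476). Abcb4, the phospholipid pump, was the only gene of these lists with a called difference of responses (−2.16, edgeR adjusted p = 0.0232). Of all genes 0.389% were called there. In the responses 3 rose and none fell in WT (11.4% and 8.68% of all genes), and 3 rose and 1 fell in KO (17.5% and 12.1%).

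Of 6 bile salt genes, not all of them carriers, 5 were tested. In WT 1 rose and 2 fell after PHx, where 11.4% of all genes rose and 8.68% fell. In KO 1 rose and 4 fell, where the shares of all genes were 17.5% and 12.1%. The basolateral uptake carrier Slc10a1 (NTCP) fell by 1.55 in WT (edgeR adjusted p = 0.0213) and 1.29 in KO (0.0374) on the log2 scale, and the export pump Abcb11 (BSEP) fell in KO (−2.23, adjusted p = 0.00492) and was lower in KO than WT after PHx (−1.51, 0.0351). The export subunit Slc51b was called higher in the same 3 comparisons as Slc13a5, with means of 0.389 CPM at baseline and 17.99 CPM after PHx in WT and of 4.25 and 42.2 CPM in KO. Slc51a, the other subunit and the gene not tested, had a mean of 0 CPM in every group.

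Of 18 regulators known to act on transporter genes, all tested, 1 was higher and 4 were lower in KO at baseline (11.1% and 4.89% of all genes), and 1 was higher and 1 lower after PHx (16% and 8.2%). In the WT response 1 rose and 5 fell (11.4% and 8.68% of all genes), in the KO response 2 and 4 (17.5% and 12.1%). The lower ones at baseline included the bile acid receptor Nr1h4 (FXR; −1.18, edgeR adjusted p = 0.0127) and the fatty acid receptor Ppara (−1.08, 0.0259), and the higher one was Cux2 (3.18, 0.0355), a gene known for its female-biased expression in liver. Stat5b, which carries the growth hormone signal, fell after PHx in WT (−1.05, edgeR adjusted p = 0.00191) and KO (−1.48, 0.000313). The xenobiotic receptor Nr1i3 (CAR) was 97.4 ± 43.8 CPM in WT and 42.3 ± 31.5 CPM in KO after PHx and was called lower in KO there (−1.20, 0.0474). Hnf4a was called in no comparison. Of 13 genes that sensors of drugs, fatty acids and oxidative stress are known to induce, 5 were higher and none lower in KO at baseline (11.1% and 4.89% of all genes), among them the CAR target Cyp2b10 at 133 ± 78.6 CPM against 6.90 ± 6.48 CPM in WT (4.27, edgeR adjusted p = 0.000951). After PHx 2 were higher in KO (16% of all genes), and 5 rose in the WT response (11.4%) and 1, Pdk4, in the KO response (17.5%). None of the 13 was called lower in any of these.

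A list of 28 genes held enzymes and carriers of citrate and dicarboxylates, the substrates of the SLC13 carriers, and the lipid synthesis genes Acss2, Acaca and Fasn. All were tested. With PHx 12 fell and 1 rose in WT (8.68% of all genes were called lower and 11.4% higher), and 10 fell and 2 rose in KO (12.1% and 17.5%). In KO against WT, at baseline 4 were lower in KO and none higher (4.89% and 11.1% of all genes), and after PHx 2 were higher and 1 lower (16% and 8.2%). The mitochondrial citrate exporter Slc25a1 fell from 271 ± 9.12 to 170 ± 35.1 CPM in WT (−0.67, edgeR adjusted p = 0.0143) and from 209 ± 47.2 to 129 ± 26.5 CPM in KO (−0.70, 0.0095). Acly, which cleaves cytosolic citrate, fell in WT (−1.34, edgeR adjusted p = 0.00858) and was higher in KO than WT after PHx (0.94, 0.0415). The acetate-activating enzyme gene Acss2 fell by 2.93 in WT and 3.16 in KO on the log2 scale (edgeR adjusted p = 0.00286 and 0.00191). Slc13a5 and Slc25a1 were thus called in opposite directions in both responses of the main fit. The Slc13a5 rise in KO lost its call in several alternative runs, such as with the mouse as a block (edgeR adjusted p = 0.0705).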

How the data were processed

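Raw read counts per gene, unnormalized, were deposited by the authors for each of 20 samples. Trimmomatic 0.36 and FastQC 0.11.5 are named in the submitters' processing notes and fastp 0.20.0 in the series' design text. The build is mm10; the aligner, counter, strand setting and annotation are not given in the sources used here. GENCODE M21 gave symbols to 46005 of 46603 identifiers. Counts totalled 21634890 to 30461351 per sample.

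The main fit was edgeR 4.0.16 (quasi-likelihood, TMM, filterByExpr, 14661 genes) in R 4.3.3 with 4 group means over all samples, and Benjamini-Hochberg adjustment over all tested genes. Alternatives were library size alone, DESeq2 1.42.0, other filters, only the samples compared, the mouse as a block, and each sample left out. The code of the fit was also run on simulated counts, and the outcome is not reported here. Sample titles give 9 mice the same number at both stages, so numbers pair samples of one animal; residuals of these pairs correlated at −0.06 to 0.20 (median 0.05), and other pairs at −0.23 to 0.28. The block fit held 18 samples of 9 mice, without WT mouse 1. The samples of a group are separate mice. Members and lists were chosen with earlier results of these data known. The 9 members were named always, other genes when called and among the 3 largest changes of their list, or defining for it. Promoters (7 of 9 members) came from RefSeq, GRCm38.p6. Some genes that this rule names are not reported here.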

Additional observations from a re-analysis of the deposited data

Results flagged for a closer look

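In 3 of 36 groups of 5 livers (9 genes in 4 groups) 1 liver lay far from the others, with a gap to its nearest neighbour above 0.71 of the group's range; chance alone gives this in about 1 in 20 groups. Slco1a1 in KO after PHx was 48.5 CPM in mouse 12, the 30 h liver, against at most 7.05 CPM in the other 4 (gap 0.895 of the range). Slc13a3 in KO at baseline was 27.2 CPM in mouse 7, against 16.4 to 19.1 CPM in the others (0.753). Slc13a5 in WT after PHx was 30.49 CPM in mouse 2 (40 h), against 1.44 to 9.74 CPM in the others (0.714).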

How the results depend on the processing

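The count of transporters called at baseline was 7 of 8 with only the 10 baseline livers fitted and 1 to 3 when 1 sample was left out, the lowest without KO baseline mouse 7. After PHx it was 1 with only those livers and 2 to 5 on leaving out 1 sample, the highest without WT mouse 2 after PHx. In the WT response it was 4 with the mouse as a replicate block and 1 to 3 without 1 sample (lowest without WT mouse 4 after PHx), and in the KO response 1 to 5 without 1 sample (lowest without KO mouse 7, highest without KO mouse 10 after PHx). The replicate block changed no member's call beyond those given for Slco1b2, Slc22a7 and Slc13a5, and cannot enter the genotype comparisons, since each mouse has 1 genotype. Over all genes, 3634 were called at baseline with library size alone and 5761 with only the baseline livers, against 2348, and after PHx 1513 with only those livers, against 3544. For the difference of responses 57 genes were called, 365 by DESeq2, 7 with the replicate block, 89 without the 30 h livers (an alternative added after seeing the data), and 22 to 712 on leaving out 1 sample (lowest without WT baseline mouse 5, highest without KO mouse 10 after PHx).

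Signs turned in uncalled changes. With library size alone Abcc3 at baseline was 0.065 and the Slco1a1 difference of responses −0.18. With the replicate block Slc13a3 was −0.997 in the WT and −0.32 in the KO response, Abcc3 −0.15 in the WT response, and the differences of responses were 1.74 for Slco1b2, 0.20 for Slc22a7 and 0.68 for Slc13a3. Without the 30 h livers Slc13a3 in WT was −0.16, Slco1a4 in KO −0.13, and the differences −0.72 for Slco1a1 and 0.74 for Slc13a3. Leaving out 1 sample gave −0.16 to 0.72 for Slc13a3 and −0.29 to 0.27 for Abcc3 in the WT response; −0.30 to 0.61 for Slc13a3, −0.13 to 0.40 for Slco1a4 and −0.61 to 0.65 for Slc13a2 in the KO response; −0.072 to 0.97 for Slc22a7 in KO against WT after PHx; and differences of −1.45 to 0.90 for Slco1a1, −1.03 to 0.18 for Slco1b2 and −0.65 to 0.49 for Slc13a3. The cause of these turns was not tested. Few counts limit Slc13a2 outside WT baseline livers.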
